A study of Mus musculus with 4 samples.

Results

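Expression of the Toll-like receptors Tlr1 to Tlr7, the adaptor Myd88 and the lipopolysaccharide co-receptors Cd14 and Ly96 was examined in the adult mouse ureter. These 10 genes were taken by symbol from 18193 named genes, and every probe set annotated with only 1 of these symbols was kept, which gave 16 of 45037 probe sets. The ureters came from adult male FVB/N mice at Theiler stage 28 that carried a reporter in which EGFP marks expression of smooth muscle gamma actin (SMGA, gene symbol Actg2). The tissue was cut out between kidney and bladder by its green fluorescence. RNA of 4 unpooled samples was amplified in 2 rounds and each sample was put on its own Affymetrix MOE430 array. The 4 are all adult ureter of the same strain, sex, stage and reporter, no untreated or non-transgenic group was analysed here, and the comparisons are with background signal, with all other genes and between samples. They are called replicates 1 to 4, in an order without meaning, and nothing in the labels states that each came from a separate animal, so the p-values measure only the spread between these samples.

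Toll-like receptors are membrane proteins that bind molecules characteristic of microbes and start innate immune signalling. Those at the cell surface mainly recognise bacterial lipids, lipopolysaccharide and flagellin, and those in endosomes recognise nucleic acids. Most of them signal through the adaptor MyD88 to kinases of the IRAK family, the ubiquitin ligase TRAF6 and the transcription factor NF-kB, while TLR3 uses the adaptor TRIF. In the urinary tract the receptors are best known for the response of the bladder lining and of resident immune cells to ascending bacteria.

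A level is log2(intensity + 16), where the intensity is the deposited signal of a probe set. A gene was above background where the mean of its levels over the 4 samples exceeded the arrays' own thresholds, each set at the 95th percentile of the array's 87 probe sets for chemosensory receptors (limma, one-sided, Benjamini-Hochberg adjusted p under 0.05). A gene with several probe sets is described by the brightest. Different probe sets bind with different strength, so levels were compared between samples and not between genes.

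The promoters of the members below are printed because the transcription factors at the end of this pathway, NF-kB and the interferon regulatory factors, were measured on the same arrays and their binding letters can be looked for. RefSeq windows of GRCm38.p6 were used for 6 of the 10 members. Member windows on an excluded chromosome were left out, although windows there stayed in the count over all windows. The windows of Tlr2, at chr3:83841599-83841858, of Tlr3, at chr8:45410371-45410630, and of Myd88, at chr9:119340009-119340268, all on the minus strand, run from 250 bases before to 10 bases after an annotated start. Capitals mark matches on either strand to the NF-kB motif (Tlr2 and Tlr3) and to TTTCNNTTTC, the core of the interferon-stimulated response element (Myd88, where it reads on the opposite strand).
Tlr2: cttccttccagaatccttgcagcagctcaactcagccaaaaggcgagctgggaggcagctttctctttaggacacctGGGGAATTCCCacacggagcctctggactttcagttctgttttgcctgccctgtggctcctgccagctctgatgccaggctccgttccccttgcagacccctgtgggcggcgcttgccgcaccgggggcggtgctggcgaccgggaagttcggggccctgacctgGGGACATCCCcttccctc
Tlr3: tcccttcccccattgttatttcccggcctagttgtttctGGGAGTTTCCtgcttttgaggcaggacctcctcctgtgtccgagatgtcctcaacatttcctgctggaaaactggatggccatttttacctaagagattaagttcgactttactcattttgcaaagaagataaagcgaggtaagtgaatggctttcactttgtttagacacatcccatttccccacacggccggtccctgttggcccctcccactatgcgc
Myd88: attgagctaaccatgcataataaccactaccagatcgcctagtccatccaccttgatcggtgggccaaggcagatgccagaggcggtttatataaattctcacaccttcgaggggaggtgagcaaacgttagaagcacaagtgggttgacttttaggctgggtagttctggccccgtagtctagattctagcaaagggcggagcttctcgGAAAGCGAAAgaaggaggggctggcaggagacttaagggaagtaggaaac
The NF-kB motif was present in 2 of the 8 member windows used and in 7.46% of all 32851 windows of that length. Matches to TTTCNNTTTC were present in 2 of the 8, those of Myd88 and Tlr6, against 3.07% of all windows. In Tlr2 the NF-kB matches began 173, 172 and 8 bases before the start, the first pair overlapping, and in Tlr3 the match began 211 bases before it. A match describes the letters only.

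The samples differed in genes of other organs. The summed intensity of 6 liver genes was 46153, 402, 12237 and 485 in replicates 1 to 4. For 5 seminal vesicle and prostate genes the sum was 6462, 62211, 76080.3 and 656. Different genes made up the sum in replicates 2 and 3. Svs4, Svs5 and Svs2 had intensities of 28479.5, 25065 and 7579 in replicate 2, against 77.7, 180 and 143 in replicate 3. Pbsn and Spink1, named after their values were seen, had 43669 and 32011 in replicate 3, against 669 and 418 in replicate 2. The sum of 4 fat cell genes was 31465 in replicate 3 and 186 to 367 elsewhere. Fabp4 alone had 31235 of it in replicate 3, where Adipoq was also highest, at 203. Cidec was highest in replicate 2, at 20.6, and Lep, named after its values were seen, in replicate 1, at 26.35. The sum of 7 skeletal muscle genes was 200548 in replicate 3 and 416 to 487 elsewhere. Contractile smooth muscle genes summed to 22904, 67765, 47851 and 27778, with median deviations of -1.09 log2 units in replicate 1 and 1.12 in replicate 2 from the mean of the remaining samples. The part of these tissues in the members' values was not tested.

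In the ureter 7 of the 10 members were above background: the receptors Tlr2, Tlr3, Tlr4 and Tlr5, the adaptor Myd88 and the co-receptors Cd14 and Ly96. Of all named genes 57.9% were above background, so the members' share of 70% lay near that of genes in general. By probe set, 9 of the members' 16 passed, against 40.9% of all probe sets. These 7 genes exceeded the threshold of each of the 4 arrays, as did 58.4% of all named genes. Tlr1, Tlr6 and Tlr7 did not pass the test.

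**Figure D1:**
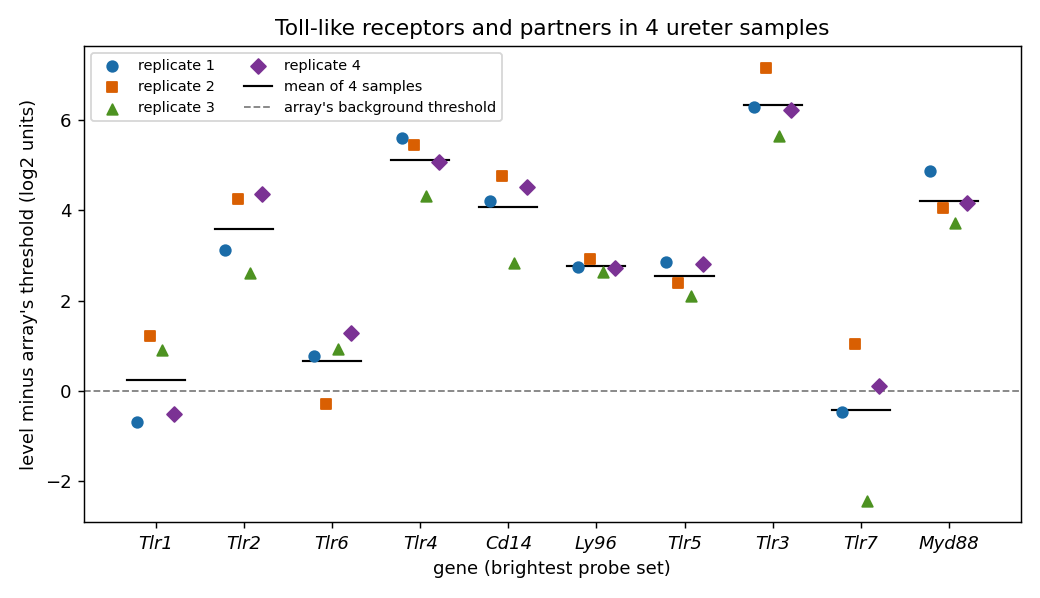
Level of each member's brightest probe set minus the background threshold of its array (log2 units) in the 4 ureter samples, with the mean as a bar and the threshold as a dashed line. The 7 genes above background have all 4 points over the line, Tlr1 and Tlr7 have 2 of 4 over it, and Tlr6 has 3 of 4. Heights are not comparable between genes.

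Among the receptors of the cell surface, Tlr4, the lipopolysaccharide receptor, was detected in every sample. Its brightest probe set, 1418162_at, had intensities of 7306, 5544, 3780.4 and 5522 in replicates 1 to 4. Replicate 1 was the highest and replicate 3 the lowest, 1.93-fold apart, with replicates 2 and 4 nearly equal between them. The level was 12.40 ± 0.39 (SD, n = 4), 5.11 log2 units over the thresholds (limma, adjusted p = 3.28e-07). The second probe set, 1418163_at, had levels of 10.27, 9.54, 9.03 and 9.83 and also passed (limma, adjusted p = 0.000122), with the same samples highest and lowest. The other 2 probe sets annotated to Tlr4 were not above background, at 7.21 ± 0.90 and 4.75 ± 0.49.

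Ly96 encodes MD-2, the small secreted protein that sits on TLR4 and holds the lipid of lipopolysaccharide. It was the member with the smallest SD between samples. Its intensities were 1007, 948.6, 1155 and 1065 in replicates 1 to 4, a 1.22-fold range, and its level was 10.05 ± 0.12 (SD, n = 4; limma, adjusted p = 6.17e-06). Replicate 3, the sample with the lowest Tlr4, had the highest Ly96, although after quantile normalization the deviation of Ly96 there shrank from 0.20 to 0.08 log2 units.

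Cd14, which encodes the co-receptor that hands lipopolysaccharide to MD-2, had intensities of 2782, 3449, 1324 and 3728 in replicates 1 to 4. Replicate 3 stood below the others, 1.31 log2 units under their mean. The level was 11.37 ± 0.68 (SD, n = 4), 4.08 log2 units over the thresholds (limma, adjusted p = 6.62e-06).

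Tlr2, the receptor for bacterial lipopeptides, is described by 1 probe set, 1419132_at. Its intensities were 1298, 2389, 1143 and 3377 in replicates 1 to 4. Replicates 4 and 2 were high and replicates 1 and 3 low, a 2.95-fold range, the widest in SD among the members above background. The level was 10.87 ± 0.73 (SD, n = 4; limma, adjusted p = 1.58e-05). Of the other members, Cd14 had the closest profile to Tlr2, with a root mean square difference of 0.38 log2 units over the 4 samples once each gene's own mean was removed. The closest genes of all by that measure were Bcl7b at 0.05, Aldh1l2 at 0.07 and Paxip1 at 0.08, and 46 of 10527 genes above background lay within 0.2 of it.

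Tlr1 and Tlr6, whose proteins pair with TLR2, were near the detection limit. Tlr1 had intensities of 77.8, 279, 337 and 99.4 in replicates 1 to 4, above the threshold of the array in replicates 2 and 3 only, and a level of 7.52 ± 0.96 (SD, n = 4; limma, adjusted p = 0.625). Tlr6 had intensities of 242, 88.2, 342 and 381, over the threshold in every sample except replicate 2, and a level of 7.96 ± 0.88 (SD, n = 4; limma, adjusted p = 0.109). Without replicate 2 Tlr6 passed (limma, adjusted p = 0.0296), which brought the members above background to 8. At these levels the order of the samples cannot be read for either gene.

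Tlr5, the flagellin receptor, had intensities of 1082, 655, 801 and 1133 in replicates 1 to 4. Replicates 1 and 4 were high and replicate 2 the lowest, 1.73-fold apart. The level was 9.83 ± 0.37 (SD, n = 4; limma, adjusted p = 2.14e-05). With thresholds at the median plus 3 median absolute deviations of the chemosensory probe sets, Tlr5 (adjusted p = 0.475) and Ly96 (adjusted p = 0.187) were no longer called by limma, leaving 5 members above background.

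Of the endosomal receptors, Tlr3, which binds double-stranded RNA, was above background by both of its probe sets. The brighter, 1422782_s_at, had intensities of 11829.6, 18206, 9421 and 12217 in replicates 1 to 4, highest in replicate 2 and 1.93-fold over replicate 3. The level was 13.62 ± 0.39 (SD, n = 4; limma, adjusted p = 1.12e-07). That probe set is of a type that can match several transcripts. The other, 1422781_at, had levels of 8.99, 10.19, 9.54 and 10.02 (limma, adjusted p = 0.000117). Both were highest in replicate 2, but the lowest sample was replicate 3 by the brighter and replicate 1 by the other, so that the deviation of replicate 1 was -0.11 by the brighter and -0.92 by the other.

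Tlr7, the endosomal receptor for single-stranded RNA, had 3 probe sets, of which none was above background. The brightest, 1422010_at, had intensities of 93.2, 247, 19 and 161 in replicates 1 to 4. It exceeded the threshold in replicates 2 and 4 and was 2.43 log2 units under it in replicate 3, with a level of 6.85 ± 1.26 (SD, n = 4). The other 2 had levels of 5.80 ± 0.71 and 5.14 ± 0.86 and were over the threshold in 0 samples. At these levels the order of the samples cannot be read.

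**Figure D2:**
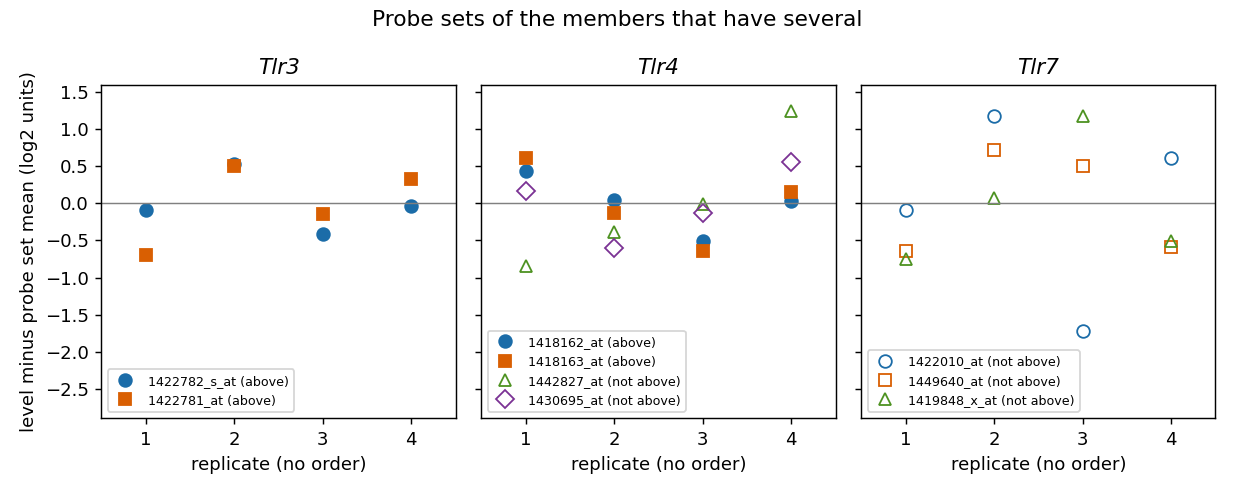
Level of each probe set minus its own mean over the 4 samples (log2 units) for the 3 members with several probe sets, with filled symbols for probe sets above background and open symbols for the others. The 2 filled probe sets of Tlr4 have replicate 1 highest and replicate 3 lowest, and those of Tlr3 share replicate 2 as the highest. The order of the samples cannot be read from open symbols.

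Myd88, the adaptor used by these receptors other than TLR3, had intensities of 4397, 2103, 2493 and 2931 in replicates 1 to 4. Replicate 1 stood highest, 2.09-fold over replicate 2, which was the lowest. The level was 11.49 ± 0.45 (SD, n = 4), 4.2 log2 units over the thresholds (limma, adjusted p = 8.35e-07). Myd88 and Tlr3 were thus at opposite ends in replicate 2.

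None of these differences between samples passed the test of spread, which set the variance of a probe set over the 4 samples against limma's prior variance for its level. For the 7 members above background the unadjusted p of the F test on this variance ratio ran from 0.207 for Tlr2 to 0.984 for Ly96, and the adjusted p was 1.00 for each. None of all 18434 probe sets above background passed either (0%). Among them was Alb, a liver gene with a 235-fold range between samples (F test, unadjusted p = 0.00104). Failing this test therefore does not show that a gene was even across the samples. At an unadjusted p under 0.05 the test named 0 of the 7 members and 4.64% of the probe sets, and with an untrended, non-robust prior it called 0 at the adjusted level and 168 at an unadjusted p under 0.05. The members' median SD was 0.39 log2 units, against 0.41 over all genes above background. These counts and medians cover only what was above background. That call itself needs a spread over the same 4 samples that is small against the distance from the threshold. Myh4, not above background, was left out of them (F test, unadjusted p = 0.000697).

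Replicate 3 was the lowest sample for 4 of the 7 members above background, Tlr2, Tlr3, Tlr4 and Cd14, and for 34.3% of all genes above background. It was the highest for Ly96 alone, against 27.5% of genes. The members' median deviation in replicate 3, its level less the mean level in the remaining samples, was -0.55 log2 units, against -0.05 over all genes above background. It was -0.27 where Tlr3 was read from its other probe set, for which replicate 1 was the lowest sample. Replicate 4 was the highest for Tlr2, Tlr5 and Cd14, against 24.1% of genes, and the lowest for 0 members, against 22.7%. Replicate 2 was the lowest for Tlr5, Myd88 and Ly96, against 23.6% of genes, and the highest for Tlr3, against 25.3%. Replicate 1 was the highest for Tlr4 and Myd88, against 23% of genes, and the lowest for 0 members, against 19.4%.

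Marker genes of several cell types differed in replicate 3, not all in the same direction. Of 16 macrophage and monocyte genes 10 were above background (62.5%, near the 57.9% of all named genes). They included the growth factor receptor gene Csf1r with levels of 12.35, 12.19, 11.48 and 11.96 in replicates 1 to 4, Adgre1 at 8.94 ± 0.58 and Cd68 at 9.18 ± 0.40. Not every macrophage gene was low in replicate 3: Mrc1 and Lyz2, above background, lay 0.20 and 0.28 log2 units over the other samples there. Cx3cr1, not above background over the 4 samples, had intensities of 52.8, 85.5, 1460.2 and 679 in replicates 1 to 4; these 3 were named after their values were seen. The list's median deviation in replicate 3 was -0.61, with 2 of 10 genes higher, and the summed intensity of all 16 was 17749.7, 20918, 14175 and 14297 in replicates 1 to 4. The medians of 9 fibroblast and 7 endothelial genes above background, of 9 and 8 measured, were -2.13 and -2.14 in replicate 3. Their summed intensities there were 22655 and 4391, against 90399 to 127630.0 and 18053 to 33545 in the other samples. The contractile smooth muscle list, with 8 of 9 genes above background, had a median of 0.21 in replicate 3, with 6 of 8 genes higher. The urothelial list, with 10 of 12 genes above background, had a median of 0.41 in replicate 3, with 8 of 10 genes higher. Its summed intensity was 398481 there, against 235953 to 283536 in the others. That sum includes Upk3a and Krt20, not above background over the 4 samples and named after their values were seen. They had intensities of 30680 and 3287 in replicate 3, against 7.49 to 114 and 51.4 to 119.85 in the others. The part of these cell types in the members' values was not tested, and in whole tissue fewer cells of a type and less RNA per cell cannot be told apart.

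**Figure D3:**
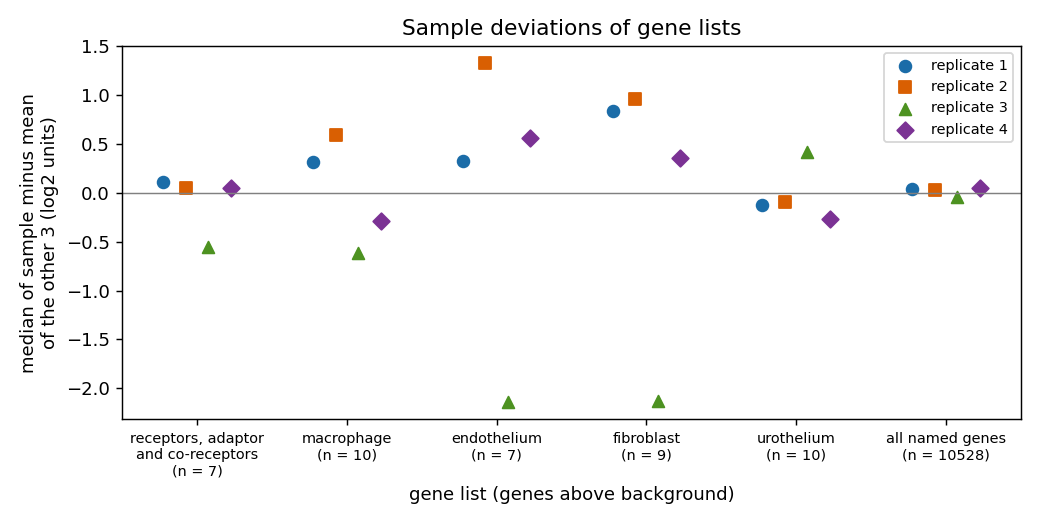
Median over the genes above background of each list of a sample's level minus the mean of the other 3 samples (log2 units), for the receptors with their adaptor and co-receptors, 4 cell type lists and all named genes. Replicate 3 is the lowest sample for the members at -0.55, for macrophage genes at -0.61, and for endothelial and fibroblast genes at -2.14 and -2.13, and the highest for urothelial genes at 0.41.

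Nearly all markers of other immune cells that carry these receptors failed the test. Of 8 neutrophil genes 0 were above background, against 57.9% of all named genes. S100a8 lay at 5.61 to 6.40 in the 4 samples, S100a9 at 4.70 ± 0.22 and Csf3r at 7.12 ± 0.35. Of 10 lymphocyte genes 0 were above background over the 4 samples, but their summed intensity was 703, 3183, 1119 and 827 in replicates 1 to 4. Cd3g had intensities of 129, 1343, 198 and 228, and Cd3e had 10.7, 258, 41.3 and 20.2. Cd3d was highest in replicate 3, with 55.7, 33.2, 95.3 and 12.55. Of 7 dendritic cell genes 1 was, Zbtb46, a transcription factor also found in endothelium, at 8.88 ± 1.58 (limma, adjusted p = 0.042), while Itgax at 7.43 ± 0.78 and Flt3 at 6.27 ± 0.68 were not. That call was lost under 9 of 13 alternatives, among them leaving out replicate 1, 2 or 4. Of the ureter's own markers, 8 of 9 contractile smooth muscle genes and 10 of 12 urothelial genes were above background. The contractile count was 4 with the strictest of the thresholds tried and 5 without the probe sets of the type that can match several transcripts. The ratio of 3' to 5' control signals, taken after 2 rounds of amplification, ran for Gapdh at 34.3, 36.9, 31.6 and 18.8 in replicates 1 to 4. For Actb the ratios were 8.23, 19.8, 5.27 and 4.43. RNA integrity before amplification was not measured apart from that step. The part of RNA quality in the members' values was not tested.

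The rest of the pathway was described by 7 lists with 60 genes, of which 53 were measured and 30 were above background (56.6%, against 57.9% of all named genes). By list the count ran from 0 of 4 to 10 of 10. All 10 measured kinases and ubiquitin ligases were above background, among them Irak1 at 11.22 ± 0.32, Irak2 at 9.99 ± 0.24, the ubiquitin ligase Traf6 at 11.09 ± 0.65, the kinase Map3k7 at 10.30 ± 0.18 and its partner Tab1 at 9.82 ± 0.29. Of 7 transcription factors 5 passed, including the NF-kB subunits Rela at 13.11 ± 0.34 and Relb at 9.53 ± 0.33, and Irf3, which acts downstream of TLR3 and TLR4, at 12.32 ± 0.14. Nfkb2 at 7.66 ± 1.42 and Rel at 6.84 ± 0.65 did not pass.

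Negative regulators were above background in 7 of 8 cases, against 57.9% of all named genes. Nfkbia, the inhibitor that holds NF-kB in the cytoplasm and is itself induced by it, had 15.58 ± 0.31, Tollip had 13.10 ± 0.31 and Sigirr, a receptor-like inhibitor, had 11.56 ± 0.22. Irak3, a kinase-like protein that restrains MyD88 signalling, had levels of 9.97, 9.23, 7.70 and 8.70 in replicates 1 to 4, lowest in replicate 3. Tnfaip3, the enzyme A20 that ends NF-kB signalling, reached 12.16 in replicate 2, while the other samples lay at 10.74 to 10.83.

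Of the response genes, induced when the pathway is active, 2 of 14 were above background, against 57.9% of all named genes. The cytokine genes Tnf at 4.95 ± 0.32, Il1b at 7.26 ± 0.57 and Il6 at 4.77 ± 0.63 and the chemokine gene Cxcl2 at 5.61 ± 0.59 did not pass. Those that passed were the neutrophil-attracting chemokine Cxcl1 and, named after its values were seen, the adhesion molecule Icam1 at 11.46 ± 0.52. Cxcl1 had levels of 8.89, 10.42, 8.50 and 10.96 in replicates 1 to 4 (limma, adjusted p = 0.00154), high in replicates 2 and 4 and low in replicates 1 and 3. Tlr2 and Cd14 had the same order of samples, as did 5.48% of all genes above background. Cxcl1 passed by 2 probe sets, both of the type that can match several transcripts, while the remaining probe set did not pass (limma, adjusted p = 0.517), so its call was lost where that type was left out. In replicate 2, 6 of the 14 response genes lay over the threshold, against 3, 4 and 3 in replicates 1, 3 and 4. Of all 18193 named genes 12165, 12469, 12258 and 12002 lay over it in replicates 1 to 4. Replicate 2 also had the lowest threshold, 6.99, against 7.25, 7.56 and 7.36 in replicates 1, 3 and 4. Cxcl10, an interferon-induced chemokine named after its values were seen, had an intensity of 718 in replicate 2, 2.53 log2 units over that array's threshold, and 69.7, 6.33 and 127 in replicates 1, 3 and 4.

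Of the other Toll-like receptors Tlr8 at 5.53 ± 0.90, Tlr9 at 6.90 ± 0.43, Tlr12 at 6.98 ± 0.41 and Tlr13 at 6.05 ± 0.28 were measured. Among these 0 of 4 was above background, against 57.9% of all named genes. Of 7 further co-receptors and chaperones 5 passed. These included Lbp, the secreted carrier of lipopolysaccharide, at 11.46 ± 0.71 and lowest in replicate 3 at 10.44, Ly86 at 9.14 ± 0.68, the scavenger receptor Cd36 at 10.01 ± 0.94 and Unc93b1, which brings endosomal receptors to their compartment, at 9.65 ± 0.35. Cd180, the partner of Ly86 on B cells, did not pass at 6.73 ± 0.65. Of 3 other adaptors only Tirap, which links MyD88 to TLR2 and TLR4, passed, at 13.31 ± 0.22, while Ticam1, the TRIF adaptor of TLR3, had 7.93 ± 0.41 (limma, adjusted p = 0.0657) and Sarm1 had 7.54 ± 0.21.

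**Figure D4:**
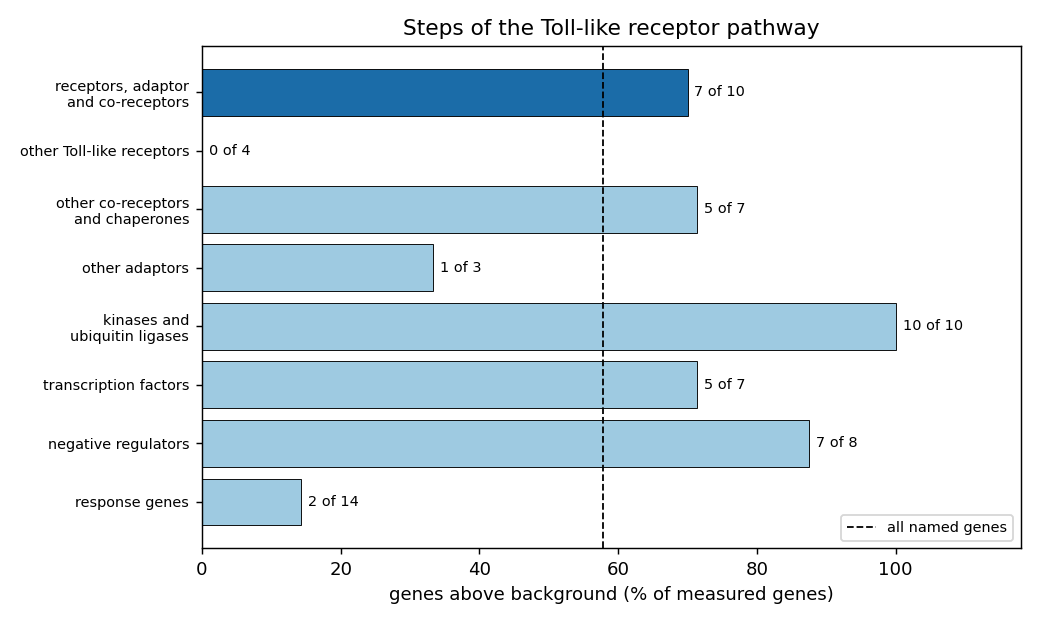
Share of measured genes above background (percent) for the receptors with their adaptor and co-receptors and for the 7 other lists of the pathway, with the share over all named genes, 57.9%, as a dashed line. Kinases and ubiquitin ligases reach 10 of 10, response genes 2 of 14 and the other Toll-like receptors 0 of 4.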

How the data were processed

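RNA of 4 ureter samples was measured on 1 array each. The authors deposited 1 linear intensity per probe set and array. Per the submitters' processing notes, GCOS was used; which version and algorithm is not given in the sources used here. The deposited intensities had the same trimmed mean, 1500, on each array once 2% of probe sets was removed at either end, which shows scaling per array, and were not scaled further. Apart from 64 control probe sets, not used, there were 45037, of which 34945 had 1 symbol in the platform annotation, 932 several and 9160 none. Detection was tested with limma 3.58.1 in R 4.3.3 (trended, robust) on log2(intensity + 16) minus each array's threshold, which was 7.25, 6.99, 7.56 and 7.36 in replicates 1 to 4. None of the 87 chemosensory probe sets was called. The thresholds come from these same probe sets, so this was nearly fixed in advance and does not check the calls. The spread test had 3 and 4.24 degrees of freedom, and its smallest adjusted p was 0.292. The code was tested on simulated data. The number of arrays limits the precision.

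The members and lists were chosen with earlier results of these data known. The rule named all members, the first 5 measured genes of each pathway list, the first 3 of each marker list and the 3 genes closest in profile to the most variable member. Of the 177 genes written in all lists, 13 had no probe set with that symbol alone and are not analysed here. By the test of the mean the lists for liver, seminal vesicle and prostate, adipocytes and skeletal muscle had 2 of 6, 1 of 5, 0 of 4 and 0 of 7 genes above background. The share over all named genes was 57.9%. The liver count was 0 without replicate 1 or without replicate 3, the seminal vesicle and prostate count 3 without replicate 4, and the adipocyte count 1 without replicate 1.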

Additional observations from a re-analysis of the deposited data

Results flagged for a closer look

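Of 84 probe sets examined, the 16 of the members and the named genes of the other lists, 5 had a sample whose gap to the nearest other sample took up more of the whole range than Dixon's critical value allows for 4 samples, where chance flags about 1 in 20 groups. None of the members' 16 did. Tlr9, not above background, had 6.257 in replicate 4 against 7.066 to 7.151 in the others. Tnfaip3 had 12.16 in replicate 2 against 10.74 to 10.83, and Il1b, not above background over the 4 samples, had 8.102 in replicate 2 against 6.882 to 7.045. Outside the pathway, replicate 3 had 16.39 for the skeletal muscle myosin Myh4 against 4.142 to 4.516, and 14.93 for the fat cell gene Fabp4 against 7.058 to 8.328.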

How the results depend on the processing

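The calls of the 10 members were recomputed under 13 alternatives: pseudocounts of 1 and 64, quantile normalization, 2 other thresholds, a filter on dim probe sets, a call without a test, 2 other rules for probe sets and each sample left out in turn. Of 130 such calls 122 stayed on their side with the same sign, 3 changed side (Tlr5, Ly96 and Tlr6, as reported) and 5 turned the sign of the mean distance from the threshold, all for genes not above background. The distance of Tlr1, 0.23 log2 units, became -0.284 with the threshold at the 99th percentile and -1.84 with the strictest, the median plus 3 median absolute deviations. With a sample left out it ran from -0.101 (without replicate 2) to 0.535. That of Tlr6, 0.67, became -1.40 with the strictest threshold, and that of Tlr7, -0.44, ran from -0.932 (without replicate 2) to 0.228 (without replicate 3). The cause was not tested. The members above background numbered 5 to 8, and all genes above background 7246 to 10760, against 10528. With the strictest threshold 19 pathway genes passed against 30, 3 macrophage genes against 10, 2 co-receptors and chaperones against 5, 2 transcription factors against 5, 4 contractile smooth muscle genes against 8 and 1 response gene against 2. Without replicate 3 the macrophage count was 13. The other adaptors above background numbered 2 with the filter on dim probe sets or without a test. The spread test called 0 probe sets under every alternative run. Quantile normalization moved the median level of all probe sets by 0.12, 0.21, -0.24 and -0.03 in replicates 1 to 4; for those above background the shifts were 0.06, 0.05, -0.04 and -0.08. Of 280 recomputed deviations of members in a sample 20 changed sign, all from main values under 0.27 in size. No paired analysis was possible because there is only 1 group of samples.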
